A study of Bos taurus with 20 samples.

Results

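DNM2 (ENSBTAG00000013362) and HGS (ENSBTAG00000000411) are 2 of the 24616 genes counted in RNA-seq libraries of bovine rumen epithelial tissue. They were chosen by identifier, with their level, spread and covariation across these libraries already known, so those measures are given as a description with no test. The libraries came from 20 Hereford x Aberdeen Angus crossbred steers on a finishing diet, with 1 library per steer, and papillae were taken from the ventral sac of the rumen at slaughter. By the sample labels, 9 steers had low residual feed intake (L-RFI: they ate less than predicted for their growth and size) and 11 had high residual feed intake (H-RFI: they ate more than predicted). Each library is named here by its steer number, and the labels give no age and no treatment that sets the groups apart.

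DNM2 encodes dynamin 2, a large GTPase found in most cell types that assembles around the neck of a clathrin-coated pit and cuts the forming vesicle from the plasma membrane. HGS encodes HRS, which sits on the early endosome, binds ubiquitinated membrane proteins and, with STAM as the ESCRT-0 complex, starts their sorting towards the lysosome. The products therefore act at successive steps of one route, the first at uptake and the second at the sorting of what was taken up. The rumen wall is lined by a stratified squamous epithelium that absorbs short-chain fatty acids, and its cells take up and turn over surface transporters and receptors by this route.

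Several facts of the series bear on the values below. The libraries held 9622534 to 13960297 reads counted on genes, and the closest of the 190 pairs of libraries still differed by a chi-square of 3.13 per degree of freedom, so no library was a copy of another. The study's own list of steers gives the opposite RFI group to the labels for 6 of its 18 steers (4 labelled high and listed low, 2 labelled low and listed high) and does not list 2 steers, so 12 steers have the same group in both. Every steer labelled high has a number of 205 or lower and every steer labelled low a number of 219 or higher. Clustering of all genes set the libraries of steers 47, 105, 155, 317 and 345 apart from the other 15, and the first principal component of the 500 most variable genes held 87.1% of their variance. Of these 5 libraries, 3 were labelled H-RFI and 2 L-RFI. The column headers carry a code with digits 01, 03 or 12 that the labels do not explain, and of the 5 libraries, 0 of 8 were in set 01, 1 of 6 in set 03 and 4 of 6 in set 12.

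The labelled tissue was checked against 5 markers of stratified squamous epithelium. KRT14, the basal layer keratin, lay between 0 and 1.35 CPM (the reads of a gene scaled to a common library total), ZNF750 between 0 and 0.592 CPM and PKP1 between 0.0914 and 0.831 CPM, with means of 0.439, 0.135 and 0.355 CPM, beside 0.215 to 0.312 CPM for 3 reads. By RFI group 2 of these 5 markers, LYPD3 and PKP3, had enough reads to be tested, and 0 passed. LYPD3 reached at most 6.58 CPM and PKP3, a desmosomal plaque protein, 17.7 to 55.0 CPM. MYL9, a myosin light chain of contractile cells, stood at 264 to 531 CPM, and KDR, the VEGF receptor of endothelium, at 12.6 to 67.4 CPM. The identifier that the study's table gives for KRT14, the defining keratin, was thus nearly without reads. Whether the identifiers of KRT14, PKP1 and ZNF750 in this annotation hold the expressed loci was not tested. In bulk tissue, fewer cells of a type and less RNA per cell cannot be told apart.

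DNM2 was among the more abundant transcripts. Over the 20 libraries it had 216 ± 42.4 CPM (SD, n = 20), from 1548 to 3600 reads per library, and it was in place 749 from the top of the 20064 genes seen in any library. In set 01 it read 217 CPM in steer 11, 245 in 23, 237 in 33, 258 in 201, 235 in 205, 230 in 219, 217 in 451 and 222 in 455. In set 03 it read 150.01 CPM in steer 47, 299 in 51, 212 in 55, 276 in 271, 211 in 281 and 230.0 in 299. In set 12 it read 165 CPM in steer 105, 228 in 115, 144 in 155, 168 in 317, 146 in 345 and 232 in 409. The 5 libraries set apart by clustering held the 5 lowest values (at most 168 CPM), below every one of the other 15 (at least 211 CPM).

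HGS stood at 91.5 ± 15.4 CPM (SD, n = 20), from 684 to 1482 reads per library, in place 2342 from the top. In set 01 it read 91.4 CPM in steer 11, 103 in 23, 105 in 33, 95.3 in 201, 115 in 205, 98.5 in 219, 87.7 in 451 and 102 in 455. In set 03 it read 66.3 CPM in steer 47, 119 in 51, 84.5 in 55, 104 in 271, 98.7 in 281 and 87.2 in 299. In set 12 it read 74.0 CPM in steer 105, 97.2 in 115, 66.6 in 155, 76.9 in 317, 66.3 in 345 and 90.8 in 409. Steer 51 was the highest and the same 5 libraries were the lowest for both genes. Gene lengths were not used, so the level of DNM2 is not compared with that of HGS.

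A deposited CPM divides by all reads of the library, so a few abundant genes can move every other value. TMM scaling instead centres most genes, and its factors ran from 0.711 to 1.16 over the 20 libraries. After TMM scaling DNM2 was 213 ± 22.2 CPM and HGS 90.3 ± 5.71 CPM (SD, n = 20 each). The highest DNM2 value was then 1.43 times the lowest, against 2.08 times in the deposited CPM, and for HGS it was 1.27 times, against 1.80 times. For DNM2, 4 of the 5 libraries set apart (180 to 189 CPM) still lay below all of the other 15 (196 CPM or more), and steer 47 (211 CPM) lay among them. For HGS, 2 of the 5 (80.6 and 83.0 CPM) lay below the others (83.3 CPM or more), and the highest of the 5 was at 93.2 CPM. Their mean was 65.3% of that of the other libraries for DNM2 on the deposited scale and 85.9% on the TMM scale. For HGS the same figures were 71.0% and 93.5%. The deposited level of each gene rose with the TMM factor (r = 0.900 for DNM2 and 0.946 for HGS, n = 20), a factor that is itself computed from the genes of the same libraries.

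**Figure D1:**
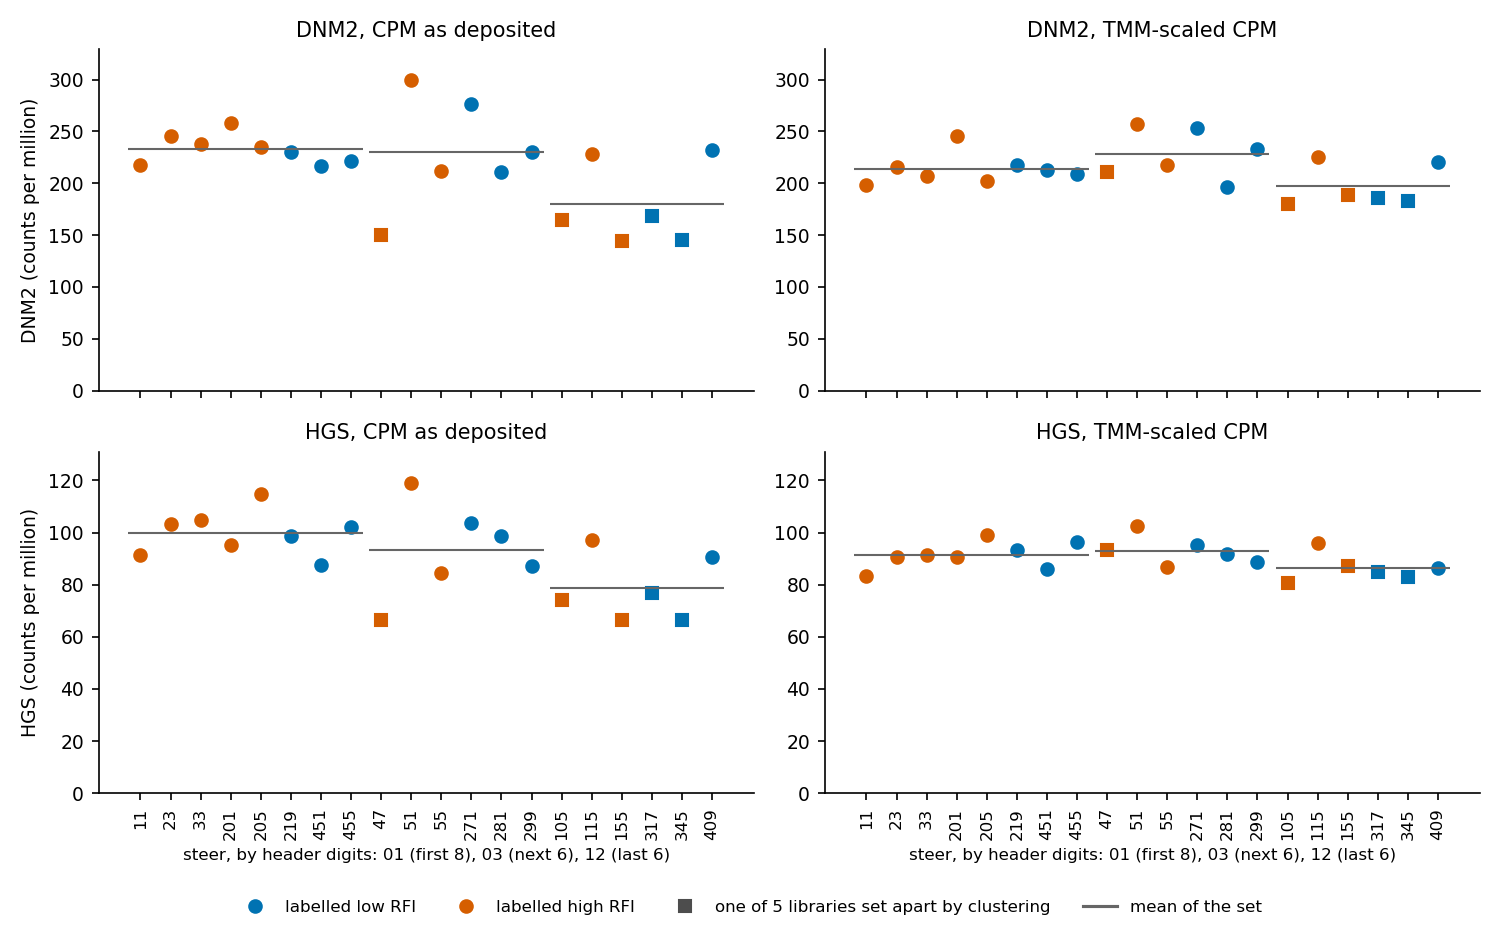
DNM2 (top) and HGS (bottom) in each of the 20 libraries, in CPM as deposited (left) and after TMM scaling (right). Steers are ordered by the digits of the column header, colours give the labelled RFI group, squares are the 5 libraries set apart by clustering and grey lines are set means. The squares lie lowest on the left for both genes (at most 168 and 76.9 CPM) and on the right 4 of 5 remain below all circles for DNM2 and 2 of 5 for HGS.

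How narrow the spread of these genes was depended on that scaling. In the deposited CPM the coefficient of variation (CV, the SD as a percent of the mean) was 19.6% for DNM2, and 46.4% of the 1645 genes with a mean within 0.5 to 2 times its own had a smaller one. For HGS it was 16.9%, with 35.0% of 3809 such genes smaller. The median CV of the genes compared was 20.8% and 21.9%. By the median absolute deviation over the median, which gives less weight to extreme libraries, 11.9% of the same genes were narrower than DNM2 and 39.6% narrower than HGS. After TMM scaling the CV of HGS was 6.32%, and 0.547% of 3836 genes of similar mean had a smaller one, while the median of those genes was 24.8%. DNM2 was at 10.4%, with 8.96% of 1651 genes smaller and a median of 24.0%. Scaling by the RLE size factors gave 7.36% for HGS (1.91% of genes smaller) and 10.8% for DNM2 (10.2% smaller). Without the 5 libraries the deposited CV fell to 10.4% for DNM2 and 9.96% for HGS, with 32.8% and 29.7% of genes smaller, and the TMM-scaled CV to 8.63% and 5.75%, with 12.5% and 1.67% smaller.

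As a measure of the precision of single values, counting alone would give a mean CV of 2.02% for DNM2 and 3.09% for HGS at these read numbers.

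**Figure D2:**
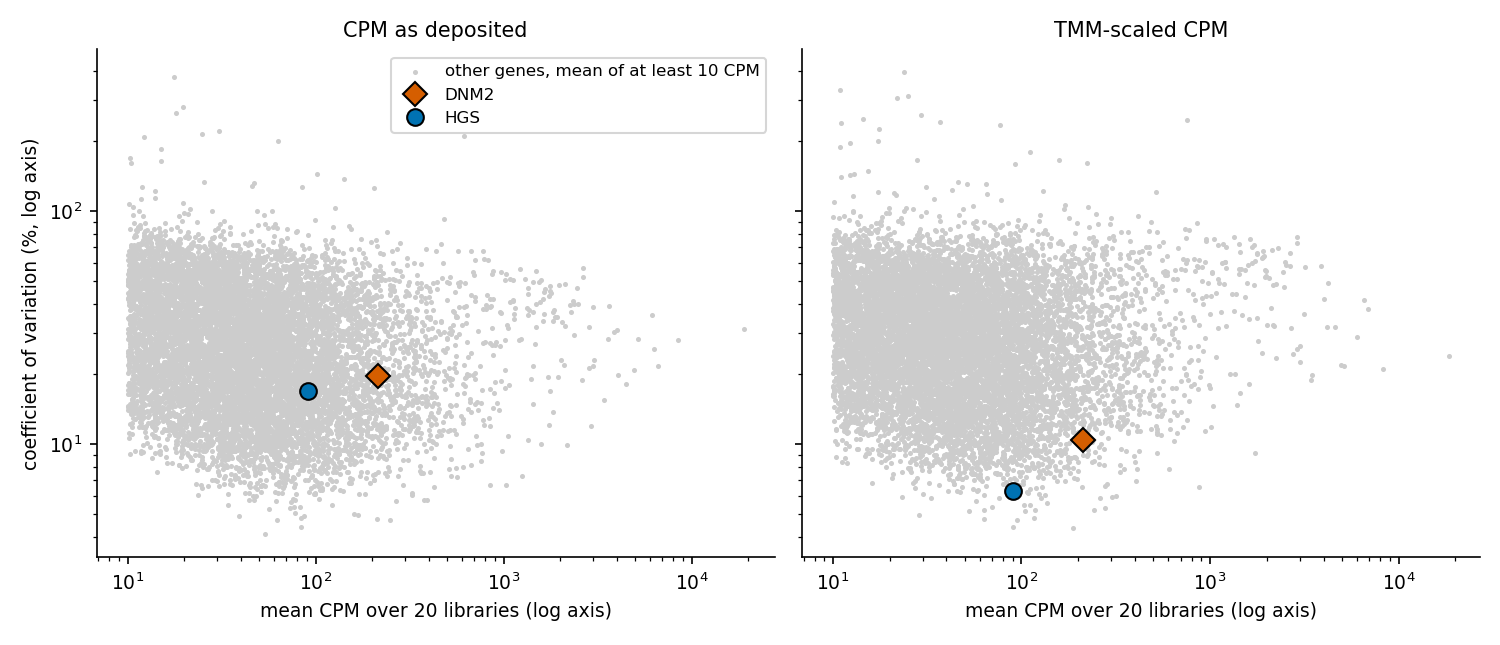
Coefficient of variation over 20 libraries (percent, log axis) against mean CPM (log axis) for each gene with a mean of at least 10 CPM, as deposited (left) and after TMM scaling (right). Grey points are other genes, the diamond is DNM2 and the circle HGS. Both lie within the cloud on the left (19.6% and 16.9%), and on the right HGS lies at its lower edge (6.32%) with DNM2 above it (10.4%).

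DNM2 and HGS rose and fell together across the libraries as deposited. Pearson's r of log2(CPM + 1) was 0.926 (jackknife SE 0.0384, n = 20) and Spearman's rho was 0.832. Leaving out 1 library at a time gave r between 0.910 and 0.945, and leaving out steers 155 and 345, farthest from the median of DNM2, gave 0.883. Without the 5 libraries set apart r was 0.641. These points share depth and scaling: on the deposited scale 33.3% of 10013 genes with a mean of at least 10 CPM had an r above 0.8 with DNM2, and 35.8% with HGS. An r of 0.926 was thus exceeded by 1.13% of genes for DNM2 and by 7.22% for HGS.

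After TMM scaling r between the genes was 0.619 and rho 0.522, and r was 0.361 without the 5 libraries. Leaving out steer 51 lowered the TMM-scaled r to 0.516 and leaving out steer 205 raised it to 0.705. Leaving out steers 51 and 271, farthest from the median of DNM2 on this scale, gave 0.461. Against the other genes the pair still stood high on this scale, where 1.39% of genes had a higher r with DNM2 than HGS had and 0.859% a higher r with HGS than DNM2 had. The median r of all genes was then -0.107 with DNM2 and -0.156 with HGS.

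The strength of the relation differed between the sets of the column header. On the deposited scale r was 0.368 in set 01 (n = 8), 0.939 in set 03 (n = 6) and 0.983 in set 12 (n = 6). On the TMM scale it was 0.0363, 0.569 and 0.801. Set 01 held none of the 5 libraries set apart and spanned the narrowest range of DNM2 as deposited, 217 to 258 CPM. On the TMM scale DNM2 ran from 198 to 245 CPM in set 01 (CV 6.80%) and from 180 to 225 CPM in set 12 (CV 10.2%). Subtracting the set means left r at 0.898 as deposited and 0.485 after TMM scaling. The difference between the sets was not tested.

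**Figure D3:**
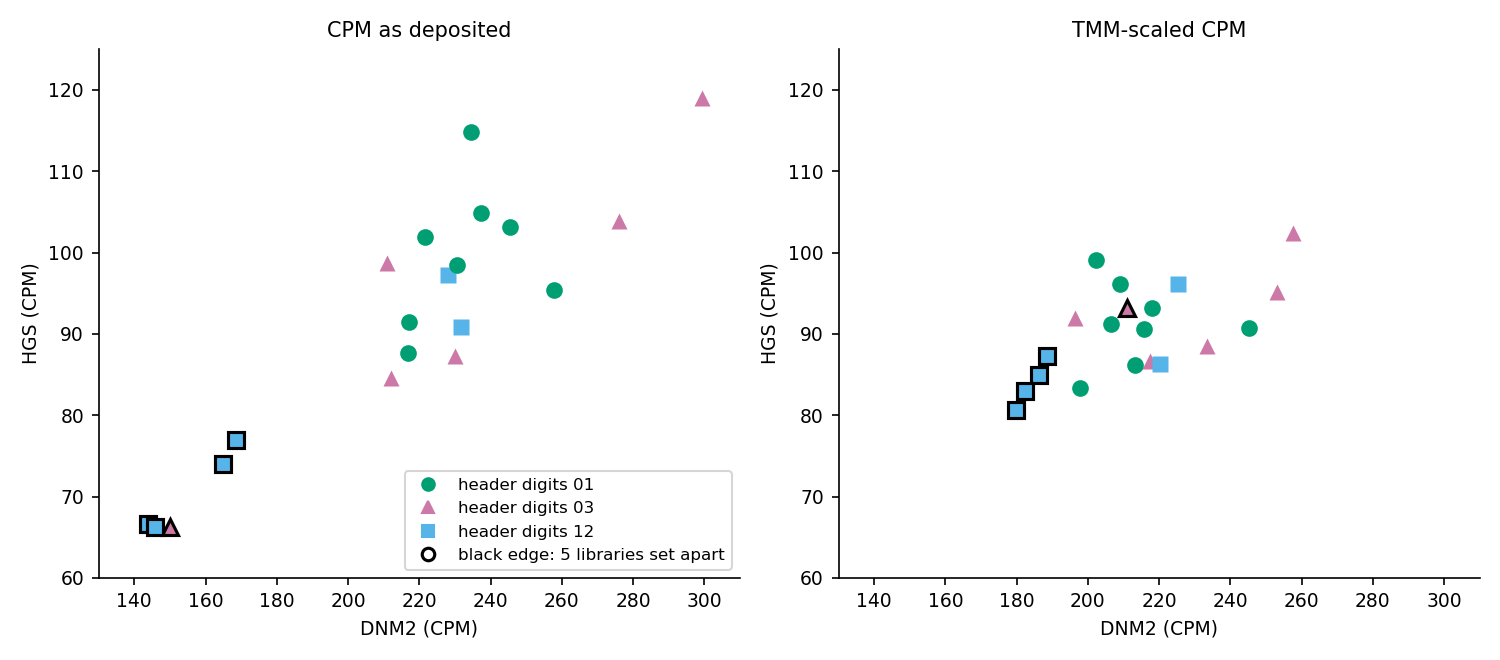
HGS against DNM2 in the 20 libraries, in CPM as deposited (left) and after TMM scaling (right), with both axes starting above 0. Colour and shape give the digits of the column header and black edges mark the 5 libraries set apart. On the left those 5 form the low end of the relation (r = 0.926 over all libraries, 0.641 without them), and on the right the cloud is narrower (r = 0.619).

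The ratio of DNM2 to HGS reads within a library does not depend on any scaling. It ran from 2.04 in steer 205 to 2.71 in steer 201, with a mean of 2.36 ± 0.192 (SD, n = 20) and a CV of 8.13%. The counting error of a single ratio was 3.69% on average. The extreme libraries both belong to set 01 and both were labelled H-RFI, but the study's list gives steer 205 as L-RFI. The 95% counting intervals of neighbouring libraries in this order overlap. The 5 libraries set apart held 2.23 (steer 105), 2.16 (155), 2.19 (317), 2.20 (345) and 2.26 (47), so they differed little among themselves and all lay below the mean. The set means were 2.34 in set 01, 2.45 in set 03 and 2.28 in set 12. The mean of the 5 libraries set apart was 2.21 ± 0.0392 (SD, n = 5), against 2.41 ± 0.197 in the other 15. Their CV of 1.78% was below the counting error of a single ratio. Unlike the deposited level of each gene, the single lowest ratios were not in the libraries set apart, since steers 205 and 281 (2.14) had lower values.

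**Figure D4:**
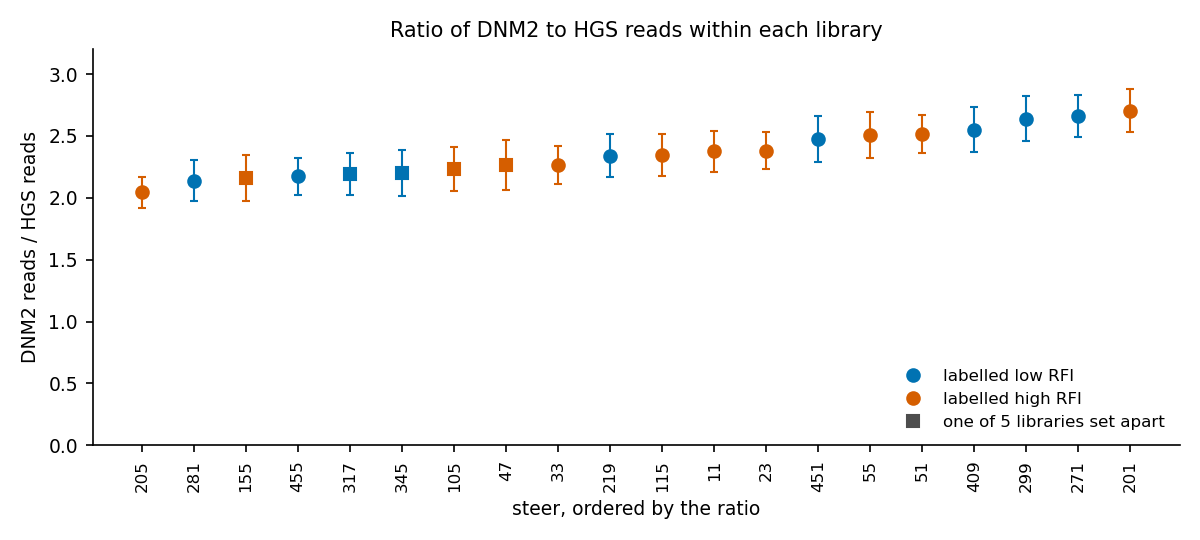
DNM2 reads divided by HGS reads in each of the 20 libraries, ordered by the ratio (steer numbers on the horizontal axis). Colours give the labelled RFI group, squares are the 5 libraries set apart and bars are 95% counting intervals. The ratio runs from 2.04 to 2.71, and L-RFI and H-RFI libraries are mixed along the order.

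The level of both genes was lowest on average in set 12. As deposited, DNM2 was 233 ± 14.4 CPM in set 01 (SD, n = 8), 230 ± 52.9 in set 03 (n = 6) and 180 ± 39.5 in set 12 (n = 6). HGS was 99.7 ± 8.50, 93.3 ± 18.1 and 78.6 ± 12.8 CPM. Set 12 differed from set 01 by -22.45% for DNM2 and -21.15% for HGS. After TMM scaling the difference from set 01 was -7.69% for DNM2 and -5.39% for HGS, and without the 5 libraries the deposited difference was -1.22% and -5.73%, with 2 libraries left in set 12.

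The study asked whether rumen epithelial expression differs between steers of low and high RFI. It reported both DNM2 and HGS as higher in L-RFI, by DESeq2 on the steers of its own list. Neither gene differed between the groups of the labels by more than the spread between steers. DNM2 was 212 ± 22.5 TMM-scaled CPM in L-RFI (SD, n = 9; lowest 182, median 213, highest 253) and 213 ± 23.0 in H-RFI (n = 11; lowest 180, median 211, highest 258). HGS was 89.5 ± 4.76 in L-RFI (lowest 83.0, median 88.5, highest 96.2) and 91.0 ± 6.53 in H-RFI (lowest 80.6, median 90.7, highest 102). The groups overlapped over nearly their whole range for both genes.

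In the limma fit over 14293 genes the log2 fold change, L-RFI over H-RFI, was -0.01 (SE 0.08) for DNM2 and -0.02 (SE 0.06) for HGS, both with a Benjamini-Hochberg adjusted p of 1.00. As folds these were 0.996 (95% interval 0.891 to 1.11) and 0.984 (0.906 to 1.07). Of all genes tested, at any level, 3.92% had a smaller SE than DNM2 and 0.203% a smaller one than HGS. The SE follows the spread between libraries, which was known when the genes were chosen, so this is a description. Neither member was among the genes called, which were 0 (0%) of those tested by limma with Benjamini-Hochberg adjustment, and neither was among the 154 (1.08%) with an unadjusted p under 0.05. The edgeR and DESeq2 tests on recovered reads also called 0 genes, with 163 and 316 genes at an unadjusted p under 0.05. Exact two-sided permutation tests gave p = 0.925 for DNM2, 0.562 for HGS and 0.744 for their ratio (2.37 ± 0.211 in L-RFI and 2.34 ± 0.184 in H-RFI), and p adjusted over the 5 quantities compared was 0.925 for each. With the 12 steers grouped alike by both sources the log2 fold change of DNM2 changed sign to 0.04, and that of HGS stayed at -0.02. With the groups of the study's list the limma values were 0.005 (SE 0.08) for DNM2 and -0.0006 (SE 0.06) for HGS. The higher level in L-RFI that the study reported for both genes was thus not seen by limma with its grouping either. The study's method, DESeq2, was run here only with the groups of the labels, so its own comparison was not repeated.

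Within the sets, the TMM-scaled difference of L-RFI from H-RFI was -0.101% (set 01), -0.426% (set 03) and -0.829% (set 12) for DNM2 and 0.914%, -2.36% and -3.68% for HGS. As deposited it was -6.51%, 8.43% and 1.68% for DNM2, beside -1.23% over all libraries, and -5.77%, 7.39% and -1.59% for HGS, beside -2.45%. Exact permutation p for TMM-scaled DNM2 was 0.982 in set 01 (3 L-RFI and 5 H-RFI), 1.00 in set 03 and 0.900 in set 12 (3 and 3 each, where 0.1 is the smallest p possible, so these sets alone could not pass the threshold). For HGS it was 0.804, 0.8 and 0.7. The limma interaction of RFI group and set had an unadjusted p of 0.997 for DNM2 and 0.889 for HGS, where 295 of the 14293 genes (2.06%) were under 0.05 and 0 passed adjustment.

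A list of 13 other genes of membrane traffic, all of which the study had picked on samples of this series, was described beside DNM2 and HGS. By RFI group 6 lay above and 7 below 0 on the log2 scale and 0 passed the limma test, with a median of -0.00191 beside 0.0262 over all genes tested. Their log2 fold changes ran from -0.07 (MAN2B1) to 0.19 (GCC2, SE 0.46). The smallest unadjusted p of the list was 0.339, for GABARAP.

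Across libraries, the gene of the list with the highest r with both members as deposited was ZDHHC5, the enzyme that attaches palmitate to proteins of the plasma membrane. Its r was 0.935 with DNM2 and 0.956 with HGS as deposited, and 0.692 and 0.627 after TMM scaling. It was also as narrow as HGS, with a TMM-scaled CV of 6.04% that 0.304% of genes of similar mean undercut. SH3GL1, the endophilin A2 that binds dynamin at the neck of the pit, had an r of 0.875 and 0.952 as deposited and 0.479 and 0.680 after TMM scaling, where its r with HGS was above that of ZDHHC5, with a CV of 13.2%. SH3GLB2, another endophilin family member, did not follow them. Its r was -0.200 with DNM2 and -0.182 with HGS as deposited, and -0.421 and -0.349 after TMM scaling.

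The Golgi tethers GOLGB1 and GCC2 and the lipid transfer protein VPS13D also had a high r with both members as deposited (0.873 to 0.929), but over a far wider range of their own. The TMM-scaled mean of the 5 libraries set apart was 24.98% of that of the other 15 for GCC2, 34.7% for GOLGB1 and 39.0% for VPS13D, beside 85.9% for DNM2 and 93.5% for HGS. GCC2 ran from 3.29 to 86.8 CPM as deposited. After TMM scaling the r of these 3 genes with the members was 0.358 to 0.503.

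A further 4 genes of the list had an r below 0 with both members on both scales. As deposited, GABARAP, which lines the autophagosome, had an r of -0.694 with HGS, CNIH1, an export receptor of the endoplasmic reticulum, -0.537, and RAB25, a GTPase of recycling endosomes, -0.591. The V-ATPase subunit ATP6V0D1 had -0.613. After TMM scaling the same values with HGS were -0.569 for GABARAP, -0.530 for CNIH1, -0.276 for RAB25 and -0.436 for ATP6V0D1.

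For 3 genes the sign depended on the scaling. The V-ATPase accessory subunit ATP6AP1 and the lysosomal enzymes MAN2B1 and PLBD2 had an r of 0.713, 0.501 and 0.584 with HGS as deposited and of -0.587, -0.460 and -0.381 after TMM scaling. With DNM2 it was 0.774, 0.505 and 0.659 and then -0.312, -0.383 and -0.212. Counted over the list, 8 of 13 genes had an r above 0 with each member as deposited and 5 of 13 after TMM scaling. Genes in general moved the same way. The median r over 10013 genes was 0.542 with DNM2 and 0.547 with HGS as deposited. After TMM scaling it was -0.107 and -0.156. MYL9 moved with the same libraries (r = -0.798 with HGS as deposited, 178% of the level of the others in the 5 libraries after TMM scaling), as did KDR (0.905 and 57.1%). The summed epithelial markers also moved with these libraries after TMM scaling, with a median of 43.1 CPM in the 5 (34.2 to 74.1) and 26.2 CPM in the others (23.2 to 53.9). As deposited they were at 30.9 to 52.7 and 23.5 to 62.6 CPM. PKP3 had the highest mean of these markers (27.6 CPM as deposited), so the sum mostly follows it. The TMM-scaled mean of the 5 libraries was 164% of that of the others for PKP3 and 130% for LYPD3. It was 116% for PKP1, 109% for ZNF750 and 260% for KRT14, these on few reads. As deposited the same figures were 122% for PKP3 and 198% for KRT14, but 98.2% for LYPD3, 89.6% for PKP1 and 76.05% for ZNF750. The part of these markers in the values of DNM2 and HGS was not tested.

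**Figure D5:**
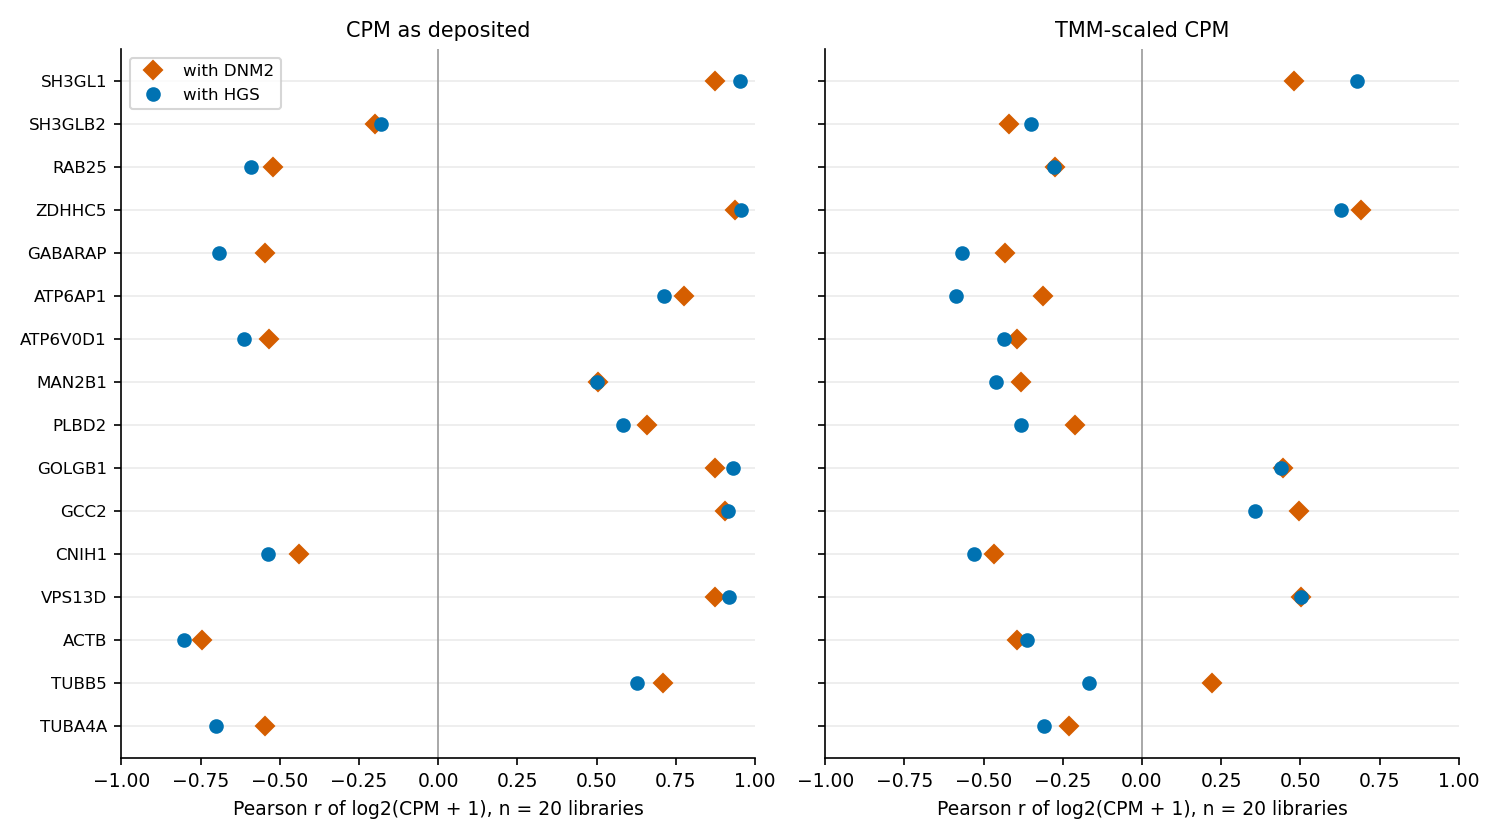
Pearson's r of log2(CPM + 1) over 20 libraries between each gene of the membrane traffic and adherens junction lists and DNM2 (diamonds) or HGS (circles), as deposited (left) and after TMM scaling (right). ZDHHC5 and SH3GL1 lie to the right of 0 in both panels, and ATP6AP1, MAN2B1 and PLBD2 lie right of 0 on the left and left of 0 on the right.

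The study groups both DNM2 and HGS with ACTB, TUBB5 and TUBA4A in an adherens junction list that it picked on samples of this series. ACTB, cytoplasmic actin, had an r of -0.745 with DNM2 and -0.801 with HGS as deposited, and its TMM-scaled mean in the 5 libraries was 187% of that in the others. TUBA4A, an alpha-tubulin, had -0.546 and -0.702. TUBB5, a beta-tubulin, had 0.709 and 0.627 as deposited, and 0.222 and -0.166 after TMM scaling, so its sign with HGS depended on the scaling. By RFI group 3 of 3 lay above 0 on the log2 scale and 0 passed the limma test. The median of all genes tested also lay above 0, at 0.0262. The largest of the 3 was TUBB5 at 0.20 (SE 0.10, unadjusted p = 0.0592, adjusted p 1.00 by limma with Benjamini-Hochberg). ACTB was at 0.02 (SE 0.24) and TUBA4A at 0.04 (SE 0.19). ACTB and the tubulins belong to families with near-identical copies, so their counts are uncertain.

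Over all 10013 genes with a mean of at least 10 CPM, those most like DNM2 as deposited were ENSBTAG00000001551 (r = 0.960, n = 20) and ENSBTAG00000009050 (0.960), both also among the 3 highest after TMM scaling (0.826 and 0.823). The lowest were ENSBTAG00000012276 (-0.956) and ENSBTAG00000004803 (-0.951). For HGS the highest were ENSBTAG00000031402 (0.972) and ENSBTAG00000002854 (0.970) and the lowest ENSBTAG00000017441 (-0.977) and ENSBTAG00000025666 (-0.977). The tables used pair none of these identifiers with a symbol. In the RefSeq annotation of a later bovine assembly (ARS-UCD2.0) the DNM2 locus overlaps TMED1, MIR199A-2, MIR3604-1 and LOC132345698, while HGS overlaps no gene and lies between MRPL12 and ARL16. No source used here says whether the counting used the strand, so reads of DNM2 and of genes that overlap it may not have been told apart.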

How the data were processed

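RNA-seq of rumen tissue was deposited for 20 steers, 1 library each. The authors deposited CPM per gene, made by aligning 100-bp paired reads with TopHat2 (2.0.10 per the labels) to UMD3.1, counting with HTSeq and dividing by all reads counted on genes. The labels and the study's methods differ in extraction kit and RNA input. Whole reads were recovered from the CPM steps: 100% of 492320 values were whole within 0.01 reads. A value of 0 allows up to 3 reads (0.215 to 0.312 CPM), and intervals cover counting error only. Groups followed the sample labels (9 L-RFI, 11 H-RFI).

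After a filter on low values (filterByExpr, minimum count 10), limma 3.58.1 (eBayes with trend, R 4.3.3) was fitted to log2(CPM + 1) of TMM-scaled CPM, with Benjamini-Hochberg adjustment at 0.05. edgeR 4.0.16 on recovered reads called 0 genes and DESeq2 1.42.0 also 0. Single values used exact two-sided permutation (Python 3.11.15, scipy 1.17.1, numpy 2.4.6). The tests were tested on simulated data. Spread was compared with genes of 0.5 to 2 times the mean. The alternatives were RLE and TMM scaling, pseudocount 0.1, no filter, other groupings, header digits as covariate and libraries left out.

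DNM2, HGS, the lists and the tests were chosen with earlier results of these data known. The genes named are these members, 13 membrane traffic and 3 adherens junction genes and the cell type markers in the study's gene table, plus for each member the genes highest and lowest in r (at most 2 without a symbol in each direction). Other identifiers of the membrane traffic list are not reported here. Of the identifiers in the files, 0 were paired in the reference table, so symbols came from the study's table and no coordinates or sequences are given.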

Additional observations from a re-analysis of the deposited data

Results flagged for a closer look

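In the L-RFI group (n = 9) 4 of the 28 values examined had an extreme library whose gap to its nearest neighbour exceeded Dixon's critical share of the group's range (0.493), and chance alone does so for about 1 in 20 groups. SH3GLB2 stood at 161 TMM-scaled CPM in steer 345 (gap 0.548 of the range), TUBB5 at 1849 CPM in steer 299 (0.503), KRT14 at 1.69 CPM in steer 345 (0.646) and ZNF750 at 0.559 CPM in steer 219 (0.705). Steer 345 is one of the 5 libraries set apart by clustering, and the KRT14 and ZNF750 values rest on few reads. No library was extreme in this way for DNM2 or HGS. The H-RFI group, with 11 libraries, was not examined.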

How the results depend on the processing

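The RFI comparison kept its outcome in every alternative run: 0 genes passed. The log2 fold change of HGS stayed below 0 in all 11, but was only -0.0006 (SE 0.06) with the groups of the study's list. The log2 fold change of DNM2 reversed to 0.005485 with the groups of the study's list and to 0.03815 with the 12 steers grouped alike, both far inside its interval. The deposited CV of DNM2 (19.6%) and HGS (16.9%) moved to 10.4% and 6.32% with TMM scaling, 10.8% and 7.36% with RLE, 14.2% and 12.9% without steers 47, 105, 155 and 317, and 10.4% and 9.96% without steer 345 as well (8.63% and 5.75% with TMM). The share of similar genes with a smaller spread (46.4% and 35.0%) moved to 8.96% and 0.547% with TMM, 10.2% and 1.91% with RLE, 11.9% and 39.6% by the median absolute deviation, and 32.8% and 29.7% without the 5 libraries (12.5% and 1.67% with TMM). The correlation (0.926) moved to 0.619 with TMM, 0.655 with RLE, 0.832 as rho (0.522 with TMM, 0.567 with RLE), 0.883 without the 2 farthest libraries (0.461 with TMM), 0.840 without 4 libraries, 0.641 without 5 (0.361 with TMM, 0.392 with RLE) and 0.485 after set means with TMM. Set 12 against set 01 (-22.45% and -21.15%) moved to -7.69% and -5.39% with TMM, -9.54% and -7.31% with RLE, -13.3% and -15.0% without 4 libraries and -1.22% and -5.73% without 5. Leaving out 1 library at a time gave a CV of 18.2% to 20.2% for DNM2 and 15.8% to 17.3% for HGS, and a correlation of 0.910 to 0.945. The cause of these moves was not tested. Leaving out the 5 libraries, the ratio, and the TMM-scaled repeats were chosen after seeing the data. No paired analysis was possible because each steer gave 1 library and the labels match no steer of one group with a steer of the other. Depth limits the markers near 0 more than DNM2 or HGS.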
